A study of Mus musculus with 8 samples.

Results

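The 10 genes described here are the secreted growth factors that direct blood and lymph vessel growth, together with their receptors and the regulator of lymphatic identity. They are the ligands Vegfa, Vegfb, Vegfc, Vegfd (formerly Figf), Angpt1 and Angpt2, the receptors Flt1, Flt4 and Nrp1, and the transcription factor Prox1. They were chosen by symbol, and all 10 were found among 55487 gene identifiers. RNA came from whole epididymal white fat (eWAT) of male C57BL/6 mice with obesity induced by a high-fat diet (HFD). The 4 WT mice (numbers 2, 3, 4 and 5) were Slc16a1 flox/flox, carrying floxed alleles and no Cre. The 4 AKO mice (numbers 3, 8, 9 and 11) were AP2-cre Slc16a1 flox/flox and are labelled Slc16a1 -/-. All 8 mice thus share the floxed alleles and the diet, and Cre and the intended deletion of Slc16a1, which encodes the lactate carrier MCT1, cannot be told apart. AP2-cre is driven by the Fabp4 promoter, which is active in fat cells and also in some macrophages. Which cells of these mice had active Cre, endothelial cells included, cannot be told from whole-tissue values. Neither age nor diet length is stated in the sources used here. Values of single mice are always listed in the order WT 2, 3, 4 and 5, then AKO 3, 8, 9 and 11.

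VEGF-A is the main growth factor of blood vessels. It signals through KDR (VEGFR2) on endothelial cells, while FLT1 (VEGFR1) binds VEGF-A and VEGF-B tightly and limits how much VEGF-A reaches KDR. VEGF-C and VEGF-D drive lymphatic growth through FLT4 (VEGFR3), and NRP1 is a co-receptor for VEGF-A. ANGPT1 steadies vessels through the receptor TEK (TIE2), and ANGPT2 often opposes it. In fat, adipocytes are a source of VEGF-A, and expansion of the tissue depends on its capillaries.

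Levels are given as TPM, a transcript share scaled per transcript length within each library, so genes can be compared with each other in 1 mouse. Depth is unknown, so no counting error is given. Per library, 13968 to 14884 genes were at 1 TPM or more. The total of the targeted gene was not lower in AKO, while 1 of its 2 rows was lower there. Summed over its rows, Slc16a1 had 21.3 ± 5.78 (WT) and 23.98 ± 2.54 TPM (AKO, SD, n = 4 each, two-sided exact permutation p = 0.371). Its first transcript row was lower in each AKO mouse, with 14.6 ± 2.88 TPM for WT and 6.61 ± 1.98 for AKO (SD, n = 4 each, exact permutation p = 0.0286, limma FDR over rows = 0.598). The other row had no TPM at all (a listed 0) for 2 of the WT mice, numbers 4 and 5, and ranged from 12.5 to 22.5 TPM in the remaining 6, which gives 2.24 on the log2 scale (limma FDR over rows = 0.838). The rows carry no transcript name, so it is not known whether either covers the deleted exons. WT mouse 4 stood apart in cell markers, with a summed level of 8 lipid-associated macrophage markers of 512.2 TPM, where WT mice 2, 3 and 5 ranged from 1443 to 3986 and AKO mice from 2367 to 4913. The 10 adipocyte markers of the labelled tissue were abundant, summing to between 28844 and 44804 TPM. Of 4 epididymal epithelium markers, Spag11b and Defb12 were listed at 0 in every library, and the 4 together reached at most 7.57 TPM, in WT mouse 4.

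None of the 10 genes separated WT from AKO. In limma, 0 of the 9 genes that passed the filter on low values reached a false discovery rate (FDR) under 0.05, where 0.0282% of the 14172 genes tested did (0.0212% higher and 0.00706% lower in AKO). Likewise 0 of 9 had an unadjusted limma p under 0.05, where 4.75% did (2.58% higher, 2.17% lower). The exact permutation test gave no p under 0.05 for any of the 10 either, its smallest possible value with 4 and 4 mice being 0.0286. The 4 WT and 4 AKO values overlapped for each of the 10 genes, while 2.44% of the genes tested had groups that did not overlap (1.11% with AKO above, 1.33% with AKO below). Of the 9 log2 changes (AKO against WT, computed as log2(TPM + 1)), 4 were above 0 and 5 below, from -0.44 to 0.23, with a median of -0.09. The median over all genes tested was 0.02, and 53.8% of them were above 0 and 46.2% below. The FDR values of the 9 genes lay between 0.831 and 0.964. Prox1 stayed under 1 TPM in each of the 8 libraries, so it did not enter that fit.

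**Figure D1:**
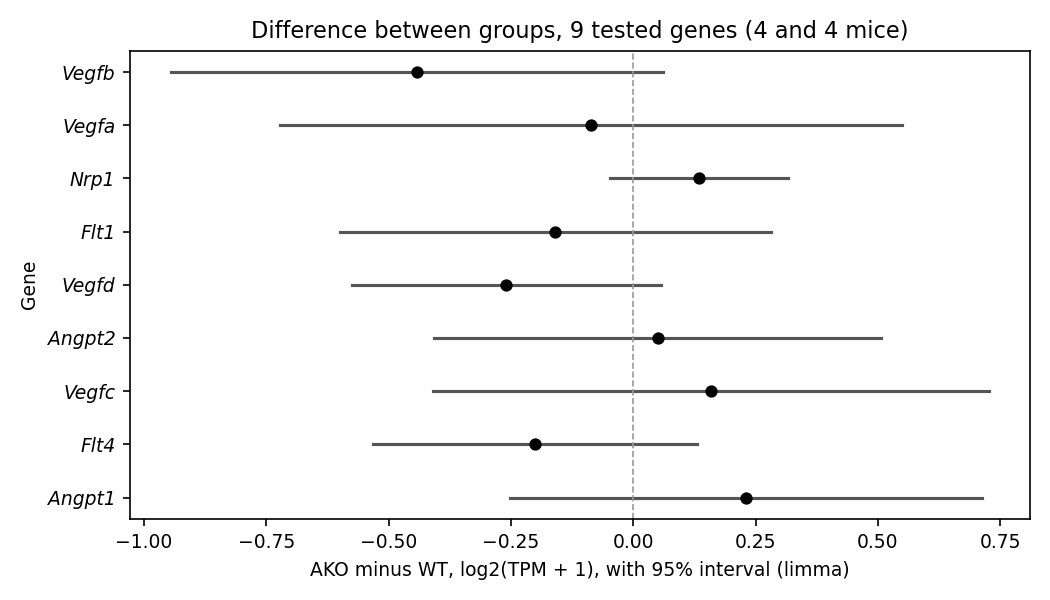
Difference between AKO and WT for the 9 tested genes on the log2(TPM + 1) scale (x axis), with genes on the y axis in order of level. Points are limma estimates over 4 and 4 mice and lines their 95% intervals, each of which includes 0, the narrowest being that of Nrp1 (-0.05 to 0.32).

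The levels spanned a wide range. Averaged over the 8 mice, Vegfb (94.8 TPM), Vegfa (89.7 TPM) and Nrp1 (87.5 TPM) were the most abundant of the 10. Their order did not hold from mouse to mouse, as Vegfb exceeded Vegfa in 3 of 8 mice and Vegfa exceeded Nrp1 in 4 of 8. Flt1 followed at 32.5 TPM and Vegfd at 25.8 TPM, with Flt1 above Vegfd in 6 of 8 mice. Angpt2 (10.7 TPM) was above Vegfc (6.79 TPM) in 7 of 8 mice, and Vegfc above Flt4 (4.87 TPM) in 6 of 8. Angpt1, at 2.21 TPM, and Prox1, at 0.199 TPM, were the lowest, and Nrp1 over Flt1, Vegfd over Angpt2, Flt4 over Angpt1 and Angpt1 over Prox1 held in 8 of 8 mice.

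**Figure D2:**
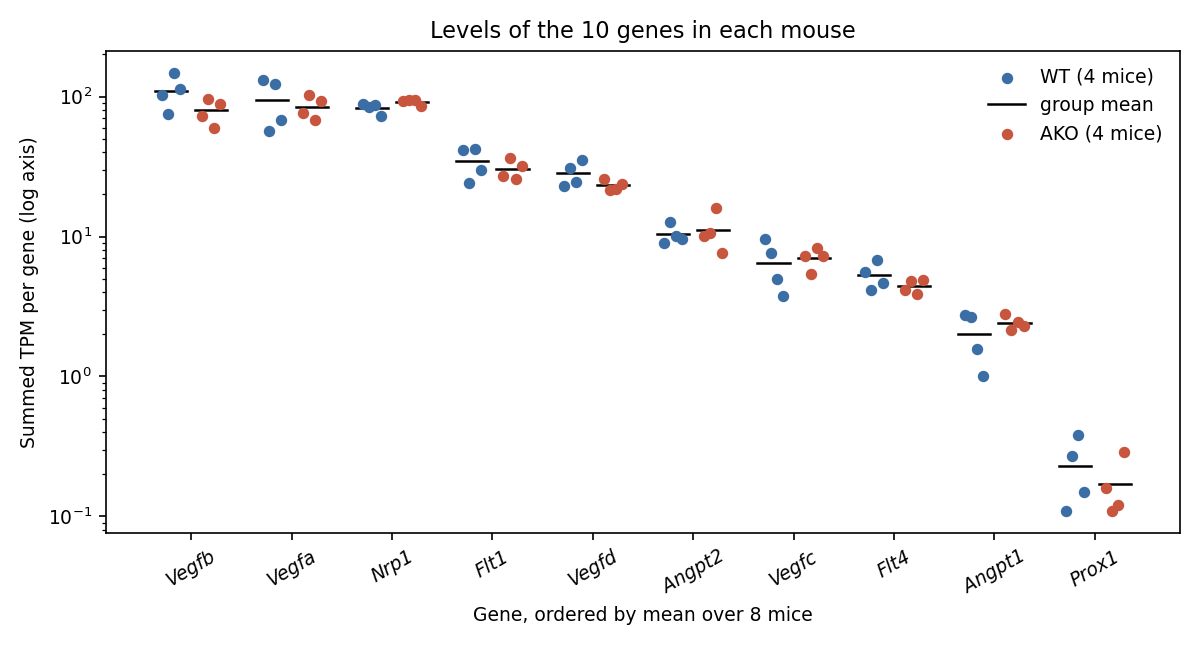
Summed TPM of each of the 10 genes (y axis, log scale) in 4 WT mice (blue) and 4 AKO mice (red), ordered on the x axis by the mean over 8 mice. Black bars are group means, and the WT and AKO points overlap for every gene, from Vegfb (59.4 to 148 TPM) down to Prox1 (0.11 to 0.38 TPM).

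Among the ligands, Vegfa had the widest spread within a genotype on the log2(TPM + 1) scale (pooled SD 0.46). That scale narrows the spread of low genes. The highest TPM over the lowest of the 8 mice was 2.30 for Vegfa. It was larger for Angpt1 (2.76), Vegfc (2.56) and Vegfb (2.50) and smaller for Angpt2 (2.12) and Vegfd (1.63). The TPM of Vegfa was 130.4, 56.6, 123 and 68.5 for WT, and 76.1, 103, 67.8 and 92.7 for AKO. The AKO values all lay inside the WT range, whose ends were the WT mice 2 and 3. Means were 94.7 ± 37.6 (WT) and 84.8 ± 15.7 TPM (AKO, SD, n = 4 each), with a log2 change of -0.09 and a 95% interval from -0.72 to 0.55 (limma FDR = 0.953, exact permutation p = 0.771). The sign of so small a difference turned with single mice, the log2 change being 0.10 without WT mouse 2, 0.07 without WT mouse 4 and 0.01 without AKO mouse 9.

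Vegfb, whose product binds FLT1 and is best known from tissues that burn fatty acids, had the lowest limma p of the 9 genes tested. It stayed far from the threshold, and Nrp1 had a lower exact permutation p. Vegfb values were 103, 74.5, 148 and 113 TPM for WT and 73.2, 96.8, 59.4 and 89.01 TPM for AKO. AKO mice 3 and 9 lay below the lowest WT mouse, and the other two lay inside the WT range. The mean was 110 ± 30.5 (WT) and 79.6 ± 16.7 TPM (AKO, SD, n = 4 each), the AKO mean being 0.724 of the WT mean (log2 change -0.44, SE 0.22, limma FDR = 0.831, exact permutation p = 0.143). Leaving out any 1 mouse gave log2 changes from -0.61 to -0.29, none with an FDR under 0.332.

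Vegfc and Vegfd, the lymphatic ligands, had different levels and different mouse-to-mouse orders. Vegfc had 9.68, 7.61, 4.98 and 3.78 TPM for WT and 7.24, 5.41, 8.35 and 7.26 TPM for AKO. AKO lay inside the WT range, with means of 6.51 ± 2.65 (WT) and 7.07 ± 1.22 TPM (AKO, SD, n = 4 each, log2 change 0.16, limma FDR = 0.910, exact permutation p = 0.600). Without WT mouse 5, the lowest, the log2 change was -0.04. Vegfd had 22.96, 31.05, 24.4 and 35.01 TPM in WT and 25.8, 21.5, 21.9 and 23.7 TPM in AKO, in the same order of mice. WT mice 3 and 5 were the highest and AKO mice 8 and 9 lay below every WT mouse. Vegfd means were 28.3 ± 5.68 (WT) and 23.2 ± 1.94 TPM (AKO, SD, n = 4 each), a log2 change of -0.26 with a 95% interval from -0.58 to 0.06 (limma FDR = 0.831, exact permutation p = 0.171).

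The promoters of these ligands differ in composition, and 4 are shown because Vegfc and Vegfd serve one receptor from unlike promoters while Vegfb and Flt1 encode a ligand and its receptor. RefSeq promoters on GRCm38.p6 (the submitters' notes name mm9 for the reads) were found for 8 of the 10 genes (not for Angpt1 and Angpt2), and the 250 bases before the first listed start are printed 5′ to 3′ on the gene's strand. Capitals mark the core of the hypoxia response element, searched as ACGTG or GCGTG on both strands. The windows are chr19:6987652-6987901 (minus strand) for Vegfb, chr8:54077282-54077531 (plus) for Vegfc, chrX:164373272-164373521 (plus) for Vegfd and chr5:147726012-147726261 (minus) for Flt1.
Vegfb: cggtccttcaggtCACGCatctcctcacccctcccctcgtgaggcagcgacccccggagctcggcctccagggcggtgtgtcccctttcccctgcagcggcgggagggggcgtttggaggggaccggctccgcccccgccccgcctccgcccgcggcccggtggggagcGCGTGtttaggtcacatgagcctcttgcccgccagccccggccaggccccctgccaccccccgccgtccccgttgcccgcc
Vegfc: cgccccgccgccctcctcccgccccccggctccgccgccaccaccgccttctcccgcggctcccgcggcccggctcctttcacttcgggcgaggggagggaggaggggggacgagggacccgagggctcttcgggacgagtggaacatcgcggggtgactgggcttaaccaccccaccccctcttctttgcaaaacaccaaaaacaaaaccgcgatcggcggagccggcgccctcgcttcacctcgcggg
Vegfd: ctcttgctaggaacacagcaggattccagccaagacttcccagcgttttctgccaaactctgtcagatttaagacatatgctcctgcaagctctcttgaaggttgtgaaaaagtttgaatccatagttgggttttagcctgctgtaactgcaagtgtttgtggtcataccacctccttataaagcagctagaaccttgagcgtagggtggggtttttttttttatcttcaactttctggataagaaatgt
Flt1: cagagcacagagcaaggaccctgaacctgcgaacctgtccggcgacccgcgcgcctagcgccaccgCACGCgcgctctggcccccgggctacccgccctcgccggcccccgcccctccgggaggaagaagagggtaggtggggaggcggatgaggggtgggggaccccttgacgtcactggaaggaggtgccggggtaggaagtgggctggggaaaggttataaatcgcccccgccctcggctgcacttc

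Vegfc holds 30 CpG dinucleotides in this window, more than 94.1% of the 32851 promoters in the table, and Vegfd holds 2, more than 18.8% of them (median over all promoters 6). Vegfb had 26 CpG dinucleotides, Flt1 23, Prox1 20 at its first listed start, Flt4 16, and Nrp1 and the first start of Vegfa 11 each. The hypoxia core was found 2 times in Vegfb, 1 time in each of Flt1 and Nrp1 and 2 times at the second listed start of Vegfa. It was in none of the other windows searched. The second Vegfa window (chr17:46025164-46025413, minus strand) lies downstream of the first (chr17:46032378-46032627), so it is not sequence ahead of the first start. Its 2 matches fall in a stretch that translates as VEGF-A protein sequence, so they are not read as promoter elements. The first Vegfa window held 0 matches. Bases farther than 250 before a listed start were not searched. Over first listed starts 3 of 8 genes had the hypoxia core, and 38.6% of all promoters hold it. The GC box GGGCGG, searched on both strands, was in the first windows of each of the 8 genes except Vegfd, against 32.7% of all promoters. The TATA box word TATAAA, on either strand, was in those of Vegfd, Flt1 and Prox1, against 12.4%. These are matches of letters, not measured binding.

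Angpt2 was the more abundant angiopoietin in every mouse. It had 9.05, 12.6, 10.1 and 9.68 TPM for WT and 10.05, 10.6, 16.03 and 7.57 TPM for AKO. The highest and the lowest value were both in AKO, in mice 9 and 11. Means were 10.4 ± 1.57 (WT) and 11.05 ± 3.57 TPM (AKO, SD, n = 4 each, log2 change 0.05, limma FDR = 0.964, exact permutation p = 0.8286), and the log2 change was -0.13 without AKO mouse 9 and -0.0064 without WT mouse 2. Angpt1 had 2.77, 2.66, 1.57 and 1.01 TPM in WT and 2.79, 2.14, 2.44 and 2.30 TPM in AKO, so that WT mice 4 and 5 were the lowest of the 8, as they were for Vegfc. Its means were 2.00 ± 0.855 (WT) and 2.42 ± 0.277 TPM (AKO, SD, n = 4 each), a log2 change of 0.23 (limma FDR = 0.851, exact permutation p = 0.371) that was 0.053 without WT mouse 5.

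Ratios within a mouse compare such pairs without the scaling of the library. Angpt2 exceeded Angpt1 3.27, 4.75, 6.43 and 9.58 times for WT and 3.60, 4.93, 6.57 and 3.29 times for AKO, with overlapping groups (log2 difference -0.33, exact permutation p = 0.571). Without WT mouse 5 that difference was -0.067 and without WT mouse 2 it was -0.58. Vegfd exceeded Vegfc 2.37, 4.08, 4.89 and 9.26 times in WT and 3.56, 3.98, 2.63 and 3.26 times in AKO (log2 difference -0.46, exact permutation p = 0.343). In 8 of 8 mice Vegfd was thus the more abundant of the lymphatic ligands, with WT mouse 5 the most uneven. Vegfb over Vegfa was 0.794, 1.32, 1.203 and 1.65 in WT and 0.962, 0.944, 0.877 and 0.960 in AKO (log2 difference -0.36, exact permutation p = 0.143). The AKO mice were close together here and WT mouse 2 lay below them all. Without WT mouse 2, 2 of these differences reached the smallest exact permutation p of 0.0286, Vegfb over Vegfa at -0.56 and Vegfd over Vegfc at -0.78. Both p are unadjusted and picked from leaving out each mouse in turn. None of the 5 ratios computed passed with all 8 mice, and each had a p of 0.571 after Benjamini-Hochberg adjustment over the 5.

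Of the receptors, Flt1 had the widest spread between mice and Nrp1 the narrowest. Flt1 had 41.9, 24.3, 42.5 and 30.02 TPM for WT and 26.9, 36.6, 25.95 and 32.2 TPM for AKO. Here too AKO lay inside the WT range, with WT mice 2 and 4 highest and WT mouse 3 lowest. Means were 34.7 ± 8.99 (WT) and 30.4 ± 4.95 TPM (AKO, SD, n = 4 each), a log2 change of -0.16 (limma FDR = 0.884, exact permutation p = 0.486). Kdr, the signalling receptor for VEGF-A and no member of the set, had 47.7 ± 20.2 TPM in WT and 47.02 ± 10.7 in AKO (SD, n = 4 each). Flt1 was 0.612, 0.905, 0.694 and 0.872 of Kdr in WT and 0.684, 0.587, 0.642 and 0.701 of it in AKO (log2 difference -0.22, exact permutation p = 0.229). Relative to its ligand, Flt1 was 0.321 to 0.438 of Vegfa in WT and 0.347 to 0.383 in AKO (log2 difference -0.08, exact permutation p = 0.486).

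Flt4 had 5.60, 4.17, 6.75 and 4.68 TPM in WT and 4.14, 4.85, 3.88 and 4.87 TPM in AKO, in the same order of mice. AKO mice 3 and 9 lay just below the lowest WT mouse. Its means were 5.30 ± 1.13 (WT) and 4.44 ± 0.502 TPM (AKO, SD, n = 4 each), a log2 change of -0.20 (limma FDR = 0.831, exact permutation p = 0.257). Nrp1 was the steadiest of the 10, at 88.1, 84.9, 87.7 and 73.3 TPM in WT and 92.8, 94.3, 93.9 and 85.1 TPM in AKO. AKO mice 3, 8 and 9 lay above every WT mouse and AKO mouse 11 did not. Nrp1 means were 83.5 ± 6.96 (WT) and 91.6 ± 4.32 TPM (AKO, SD, n = 4 each), a log2 change of 0.13 (SE 0.08, limma FDR = 0.831, exact permutation p = 0.0857).

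Whole tissue was sequenced, so fewer cells of a type and less RNA per cell cannot be told apart. A list of 13 endothelial markers (among them Pecam1, Cdh5 and Gpihbp1) summed to 1710, 883.2, 1595 and 1164 TPM for WT and to 1179, 1630, 1117 and 1392 TPM for AKO. WT mice 2 and 4 and AKO mouse 8 were high and WT mouse 3 lowest, much the order of Flt1 and Vegfa. The 10 adipocyte markers had their lowest sum in the same mouse, from 28844 TPM in WT mouse 3 to 44804 TPM in WT mouse 4 and from 30339 to 42580 TPM in AKO. The 10 macrophage markers were lowest in WT mouse 4 (2253 TPM) and highest in AKO mouse 9 (6398 TPM), ranging to 5265 TPM in WT and down to 3638 TPM in AKO, and none of the markers of these 3 lists was at 0 in all libraries. The part of cell content in the values of the 10 genes was not tested.

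The log2 changes of other cell lists were uneven in sign. All 10 macrophage markers had a log2 change above 0 (median 0.50), as had all 8 lipid-associated macrophage markers (median 1.21) and 7 of 7 fibroblast markers (median 0.31). Of the adipocyte markers 1 was above 0 and 9 below (median -0.17). Platelet markers had a median of 0.18 (3 of 5 tested), mesothelial markers one of -0.11 (6 tested) and red blood cell markers one of -0.48 (3 tested). In limma 0 genes of these lists passed an FDR of 0.05, and an unadjusted p under 0.05 was found for 3 lipid-associated macrophage, 1 fibroblast and 1 adipocyte marker and for 0 of the others. The first 4 were higher in AKO, as were 2.58% of all genes tested at that level, and the adipocyte marker was lower, as were 2.17%.

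**Figure D3:**
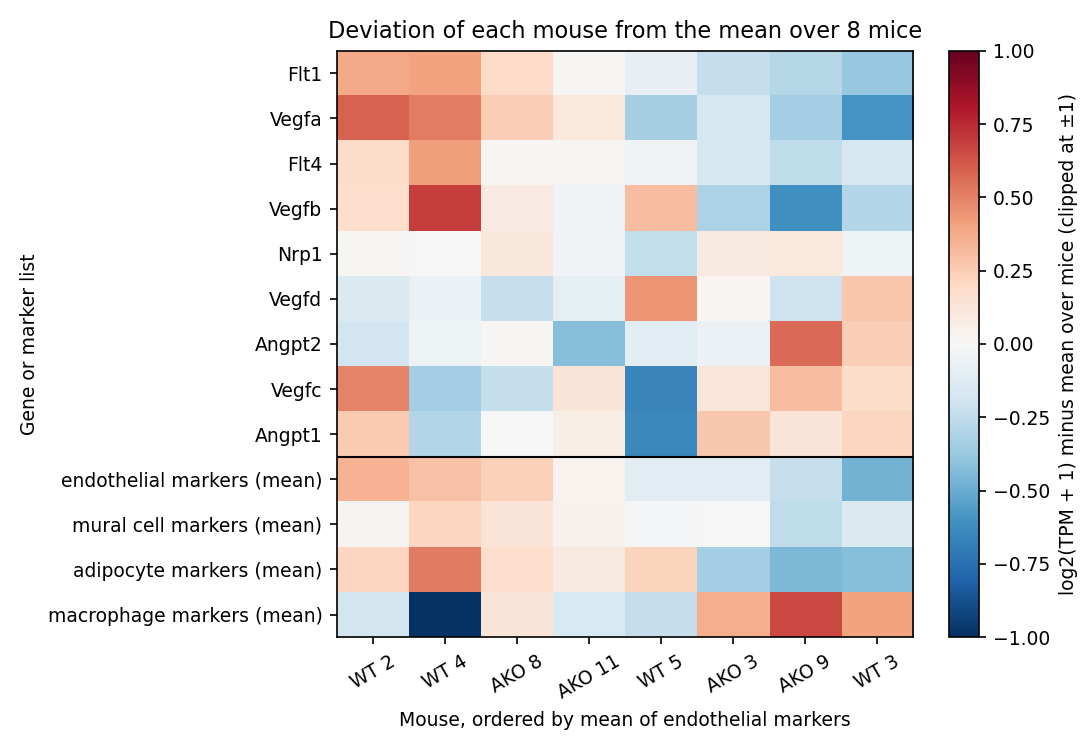
Deviation of each mouse (x axis, ordered by endothelial markers) from the mean over 8 mice, for 9 genes and 4 marker lists (y axis), as colour on the log2(TPM + 1) scale clipped at ±1. Flt1 and Vegfa share the gradient of the endothelial markers from WT mouse 2 to WT mouse 3, while Vegfc and Angpt1 are lowest in WT mouse 5.

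Subtracting the mean log2 level of the 13 endothelial markers in each mouse changed the spread of the genes unevenly. The spread within groups (pooled SD on the log2 scale) of Flt1 went from 0.31 to 0.045, that of Vegfa from 0.46 to 0.18 and that of Flt4 from 0.20 to 0.15. It grew for Vegfd (0.21 to 0.48), Vegfc (0.40 to 0.53), Angpt1 (0.32 to 0.47), Angpt2 (0.32 to 0.55) and Nrp1 (0.10 to 0.30). The mean of the markers itself ranged from 5.71 to 6.53 in WT and from 5.95 to 6.42 in AKO. Subtracting it adds that spread to any gene that does not follow it. The spread of Vegfb went from 0.36 to 0.21 against endothelial markers and to 0.087 against the 10 adipocyte markers, a comparison added after the data were seen. Against adipocyte markers the spread also fell for Flt1 (0.31 to 0.16) and Vegfa (0.46 to 0.28). Flt4 stayed at 0.20, and the spread grew for Vegfc, Vegfd, Angpt1, Angpt2 and Nrp1. Against mural cell markers Flt4 fell to 0.10, lower than against endothelial ones. Against those adipocyte markers the Vegfb difference between AKO and WT was -0.18 (unadjusted exact permutation p = 0.0571). Only 8 libraries lie behind these descriptions, and the endothelial and adipocyte markers themselves varied together.

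Flt1 relative to the endothelial markers was the 1 of 10 such values whose groups did not overlap. Of all 14172 genes tested, treated the same way, 0.748% had groups that did not overlap (0.437% with AKO below). On the log2 scale it was -1.11, -1.05, -1.03 and -1.12 for WT and -1.27, -1.19, -1.195 and -1.16 for AKO. The difference was -0.12, from -1.08 ± 0.044 (SD, n = 4) in WT to -1.202 ± 0.045 (SD, n = 4) in AKO, with an unadjusted exact permutation p of 0.0286, the smallest possible. It rested on the choice of markers. Without Cldn5, the endothelial marker with the highest log2 change (0.37, limma FDR = 0.835), the difference was -0.09 with p = 0.0571 (exact permutation). Against 11 mural cell markers it was -0.12 with an exact permutation p of 0.486, and against the adipocyte markers it was 0.11 with an exact permutation p of 0.429. Leaving out AKO mouse 3 gave -0.10 (exact permutation p = 0.0571). For Vegfb relative to the endothelial markers the difference was -0.41 (exact permutation p = 0.0857), and for the other genes p was at least 0.229 in the same test. Without WT mouse 2, Vegfb reached an exact permutation p of 0.0286 at -0.53 and Flt4 the same p at -0.25. These p are unadjusted and picked from leaving out each mouse in turn for each of the 10 genes. WT mouse 2 was the lowest WT mouse for both genes and lay inside the AKO range.

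**Figure D4:**
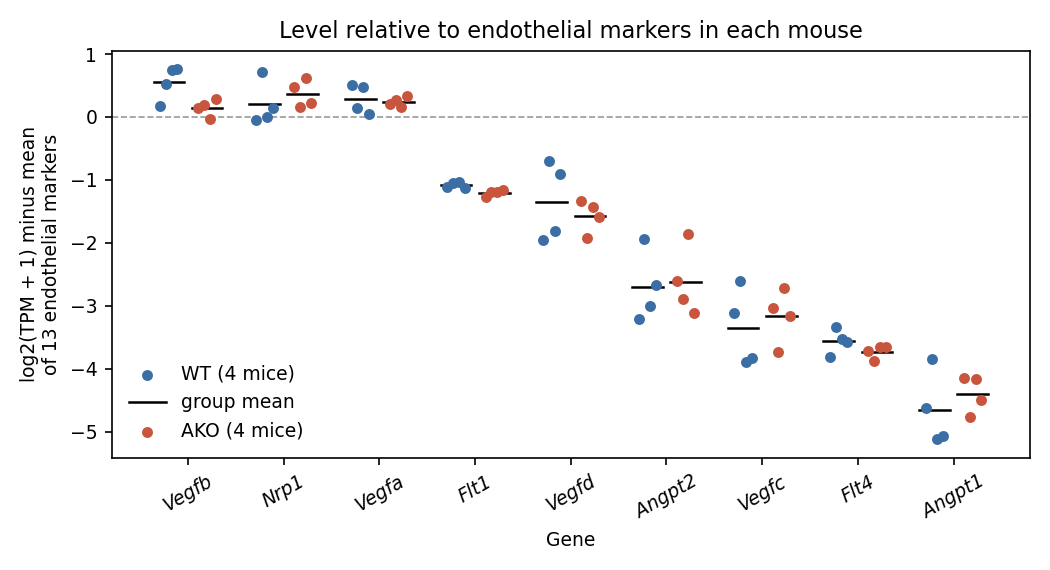
Level of 9 genes relative to endothelial markers (y axis: log2(TPM + 1) minus the mean of 13 markers in the same mouse) in 4 WT (blue) and 4 AKO (red) mice, with group means as black bars. Flt1 points lie close together, from -1.12 to -1.03 in WT and from -1.27 to -1.16 in AKO, whereas the other genes spread more widely and overlap.

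Prox1, the master regulator of lymphatic endothelial identity, was near the floor of the data. Its level was 0.11, 0.27, 0.38 and 0.15 TPM for WT and 0.16, 0.11, 0.12 and 0.29 TPM for AKO, where values are deposited in steps of 0.01 TPM. WT mice 3 and 4 and AKO mouse 11 were the highest of the 8. Means were 0.228 ± 0.122 (WT) and 0.170 ± 0.0829 TPM (AKO, SD, n = 4 each, exact permutation p = 0.543).

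The same 3 mice were the 3 highest for 3 of the 11 genes of the lymphatic endothelial list, Ccl21a, Mmrn1 and Reln, which were picked after their values were seen. Of the other 8 genes, 3 shared 2 of these mice among their 3 highest and 5 shared 1. Ccl21a, a chemokine that draws immune cells into lymph vessels, had 45.8, 41.2 and 30.4 TPM in WT mice 3 and 4 and AKO mouse 11, and between 6.83 and 20.96 TPM in the other 5. Near-identical copies of Ccl21a exist in the mouse genome, so its level is uncertain. Mmrn1, which encodes a multimerin, had 3.69, 4.83 and 2.47 TPM in these mice and at most 1.73 TPM elsewhere. Reln, which encodes the secreted protein reelin, had 1.64, 2.92 and 1.43 TPM in them and at most 0.780 TPM elsewhere. The summed epididymal epithelium markers were likewise highest in these 3 mice, at 4.22, 7.57 and 0.510 TPM against at most 0.080 TPM elsewhere, and their part in the result was not tested. Both genotypes are among the high and the low mice, and the groups overlapped for all 3 genes (exact permutation p = 0.714 for Ccl21a, 0.400 for Mmrn1 and 0.629 for Reln).

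**Figure D5:**
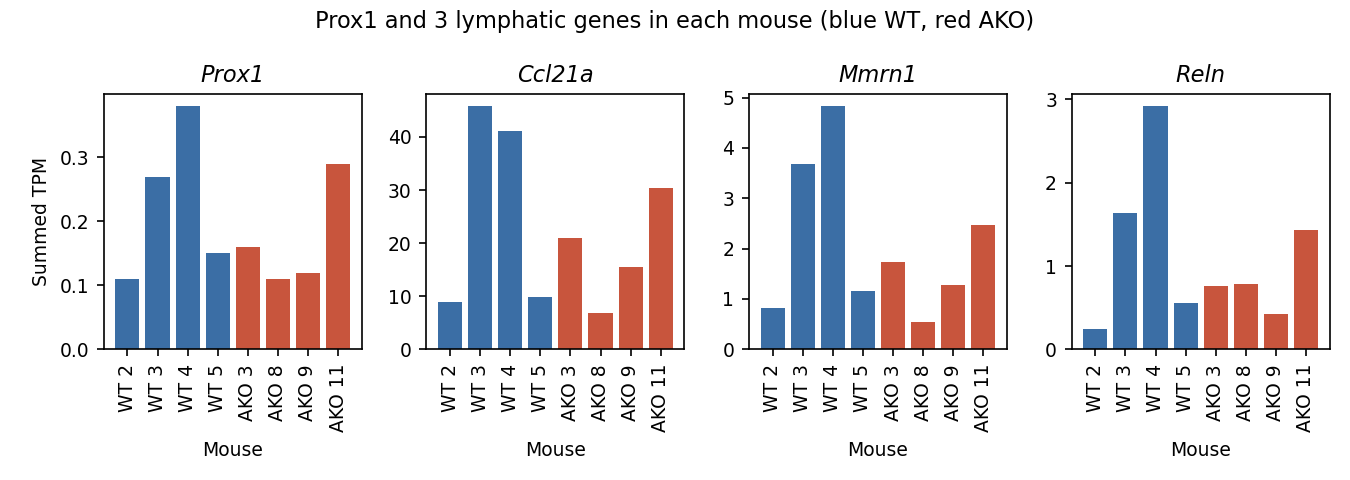
Summed TPM (y axis, from 0) of Prox1, Ccl21a, Mmrn1 and Reln in each mouse (x axis), WT in blue and AKO in red. WT mice 3 and 4 and AKO mouse 11 have the 3 highest bars in each panel, for Prox1 0.27, 0.38 and 0.29 TPM.

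Flt4 and Lyve1, often used as lymphatic markers, did not share that order, nor did Foxc2, a transcription factor of lymphatic valves, which had 1.91 TPM in WT mouse 4 and 0.770 TPM in AKO mouse 11. Flt4 was highest in WT mice 4 and 2 (6.75 and 5.60 TPM), and in WT mouse 3, with the highest Ccl21a of the 8, it stood at 4.17 TPM. Lyve1, a hyaluronan receptor of lymphatic vessels that resident macrophages carry as well, had 26.6, 28.2, 29.4 and 38.4 TPM in WT and 27.4, 18.5, 11.6 and 23.98 TPM in AKO, in the order of mice used above. AKO mice 8, 9 and 11 lay below every WT mouse (means 30.6 ± 5.33 and 20.4 ± 6.89 TPM, SD, n = 4 each, limma FDR = 0.831, exact permutation p = 0.0571). In the list of 11 lymphatic endothelial genes 8 were tested, 4 of them above 0 and 4 below, with a median log2 change of -0.02 and 0 past an FDR of 0.05 in limma. Lyve1 was the 1 member with an unadjusted p under 0.05, where 2.17% of all genes tested were lower at that level. Ccbe1, which helps process VEGF-C, had 2.43 ± 0.541 TPM in WT and 2.94 ± 0.661 in AKO (SD, n = 4 each, limma FDR = 0.840).

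Partner genes of VEGF signalling gave 7 of 15 tested members above 0 and 8 below (16 listed, median log2 change -0.03), with 0 past an FDR of 0.05 in limma. One had an unadjusted p under 0.05 and groups that did not overlap, against 2.17% and 1.33% of all genes tested in that direction. It was Esm1, which encodes endocan, a product of VEGF-stimulated endothelial tip cells. Esm1 had 1.83, 1.17, 2.02 and 1.80 TPM for WT and 1.08, 0.590, 0.500 and 0.930 TPM for AKO. Each AKO mouse was below each WT mouse, narrowly so for AKO mouse 3 and WT mouse 3. The mean of Esm1 in AKO was 0.455 of that in WT (1.71 ± 0.370 and 0.775 ± 0.275 TPM, SD, n = 4 each), a log2 change of -0.61 that did not pass over all genes (SE 0.17, limma FDR = 0.831, exact permutation p = 0.0286). The pseudocount of 1 shrinks the change of so low a gene, and with 0.1 it was -1.07, still short of the threshold in limma. Leaving out any 1 mouse gave log2 changes from -0.71 to -0.53, with FDR values of at least 0.332. Aplnr, the receptor of apelin, had 26.5 ± 6.83 and 32.7 ± 4.298 TPM, and Nrp2, a co-receptor for VEGF-C, 29.95 ± 5.29 and 34.8 ± 5.52 TPM (SD, n = 4 each, limma FDR = 0.831 for both).

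Angiopoietin and TIE partners had 1 of 5 tested members above 0 and 4 below (median -0.10), none past the threshold and none with an unadjusted p under 0.05 in limma. Their members with the lowest p were Foxo1, a target of TEK signalling (19.6 ± 3.59 TPM in WT and 16.1 ± 3.38 in AKO), Svep1, a ligand-binding matrix protein (37.95 ± 10.8 and 42.4 ± 4.73), and Tek (24.9 ± 5.20 and 22.9 ± 2.99). Among 7 angiogenesis inhibitors 2 were above 0 and 5 below (median -0.06, 0 past an FDR of 0.05 and 1 lower with an unadjusted p under 0.05 in limma, as were 2.17% of all genes tested). That gene, Col18a1, source of the vessel growth inhibitor endostatin, had 123 ± 24.1 TPM in WT and 94.5 ± 8.02 in AKO (SD, n = 4 each, log2 change -0.36, limma FDR = 0.831), with overlapping groups. Taking the highest row of Col18a1 in place of its sum gave a log2 change of -0.026 (limma FDR = 0.959). Thbs1, which encodes thrombospondin 1, had 87.5 ± 49.7 and 63.7 ± 13.8 TPM, and Serpinf1, which encodes PEDF, 545.5 ± 89.2 and 581.7 ± 39.8 TPM.

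Regulators and companions of Vegfa in hypoxia were balanced, with 7 of 14 tested members above 0 and 7 below (15 listed, median 0.01, 0 past an FDR of 0.05 and 0 with an unadjusted p under 0.05 in limma). Vhl, which marks hypoxia factors for degradation, had 29.4 ± 4.17 TPM in WT and 34.3 ± 7.79 in AKO. Egln1, the oxygen-sensing hydroxylase, had 33.2 ± 3.57 and 30.8 ± 1.38 TPM, and the hypoxia target Car9 1.495 ± 0.896 and 2.11 ± 0.871 TPM (SD, n = 4 each). Endothelial markers had 3 of 13 above 0 and 10 below (median -0.08), and mural cell markers 5 of 11 above and 6 below (median -0.06), again with 0 past the FDR threshold and 0 with an unadjusted p under 0.05 in limma. Pecam1 had 141 ± 31.0 and 127 ± 8.87 TPM, Vwf 44.4 ± 7.83 and 40.1 ± 3.25 TPM, and the pericyte receptor gene Pdgfrb 33.1 ± 5.38 and 37.95 ± 4.49 TPM. Mcam and Tagln, also mural cell markers, went the other way, with log2 changes of -0.27 and -0.23 against 0.20 for Pdgfrb. Each of these mural cell markers stood at a limma FDR of 0.831.

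The genes whose pattern over the 8 mice was most like that of Vegfa were Itga1, an integrin collagen receptor (Pearson r = 0.994), Prex2, a Rac exchange factor (r = 0.990), and Lmcd1 (r = 0.990). These are the 3 highest values among the genes tested, predicted genes left out, on the log2(TPM + 1) scale over 8 mice that share their libraries with Vegfa, and they are given as a description. Itga1 had 29.7, 17.0, 28.0 and 19.6 TPM for WT and 21.8, 24.7, 19.5 and 23.9 TPM for AKO, high in WT mice 2 and 4 and lowest in WT mouse 3, as Vegfa was.

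Below the gene totals, the tables hold 51 transcript rows for the 10 genes, which are numbered here in their order under each gene and carry no transcript name. Of these, 27 had at least 1 TPM in at least 4 libraries, and 3 were listed at 0 in all 8. None of the 27 had groups that did not overlap (3.05% of 33323 rows tested singly did), and 0 passed an FDR of 0.05 in limma, where 0.021% of rows did. One had an unadjusted p under 0.05, as had 5.56% of all rows tested (2.34% lower in AKO). It was row 2 of Vegfb, with 47.2, 34.6, 66.3 and 50.9 TPM in WT and 27.7, 46.5, 22.6 and 36.8 TPM in AKO (FDR = 0.838 in limma, exact permutation p = 0.114). Vegfa was spread over 10 rows, of which row 2 held 37.0% to 41.1% of the total, and Flt1 over 8 rows, of which row 2 held 66.7% to 74.7%. Flt4, by contrast, had 99.0% to 100% in 1 of its 2 rows. Row 10 of Vegfa was 14.6, 5.14, 17.99 and 5.82 TPM in WT and 3.78, 8.26, 0.040 and 8.74 TPM in AKO, with AKO mouse 9 nearly at 0 while its Vegfa total was close to that of WT mouse 5 (67.8 and 68.5 TPM). Whether such a value near 0 is a failed estimate cannot be told from the files.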

How the data were processed

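RNA-seq of eWAT from 8 mice was analysed, 4 WT and 4 AKO. Per the labels, each library is 1 mouse. The authors deposited 1 table of TPM per library, with 152298 transcript rows in steps of 0.01 that sum to 1000000, the unit being read from the values. HISAT2, DESeq2 and the build mm9 are named, without role or version, per the submitters' processing notes. Quantifier, annotation and depth: not given in the sources used here. Rows were summed per gene (55141 of 55487 identifiers had a symbol). The 401 locus rows without a gene (0.605% to 0.943% of TPM) were left out. No 2 libraries were identical.

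limma 3.58.1 (R 4.3.3) with a mean-variance trend was fitted to log2(TPM + 1) of genes reaching 1 TPM in 4 or more libraries, adjusted by Benjamini-Hochberg over 14172 genes. Single values used two-sided exact permutation tests over 70 arrangements. The fit was also run on simulated data, with genes varying independently and planted changes larger than those of the 10 genes. That run does not show how changes of their size are recovered. Named genes are the 10 members, Slc16a1, up to 3 list genes with the smallest p and the 3 nearest to Vegfa. Kdr, single rows, and lymphatic genes named as picked later, fall outside that rule. Members and lists were chosen with earlier results of these data known. Alternatives were a pseudocount of 0.1, no filter, the highest row per gene, 2 scalings, library weights, leaving out each mouse, other marker lists and, added after the data were seen, adipocyte markers and the endothelial list without Cldn5.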

Additional observations from a re-analysis of the deposited data

Results flagged for a closer look

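Among 100 groups of 4 mice checked for a value far from the others, 2 were singled out, fewer than the 1 in 20 that chance gives. Nrp1 in AKO mouse 11 was 85.1 TPM against 92.8 to 94.3 in the other AKO mice. Prox1 relative to endothelial markers in AKO mouse 8 was -6.27 on the log2 scale against -5.86 to -5.78 in the other AKO mice. Prox1 itself was 0.11 TPM in that mouse and 0.12 TPM in AKO mouse 9. At so low a level the relative value mostly mirrors the endothelial markers. Their mean log2 level was 6.42 in AKO mouse 8 and 5.95 to 6.21 in the other AKO mice.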

How the results depend on the processing

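No paired analysis was possible because the groups share only the number 3, on different animals. Of 254 recomputed values other than those leaving out a mouse, 243 kept direction and side of the threshold (counts within 1.5 times). The main fit had 3 genes higher and 1 lower in AKO at an FDR under 0.05, and a pseudocount of 0.1 gave 5 higher and 1 lower. With the highest row per gene, Slc16a1 was 2.24, Col18a1 -0.026, Nrp2 -0.057 (limma FDR = 0.950) and log2 Flt1 over Vegfa 0.0047. Relative to adipocyte markers, differences turned to 0.18 for Vegfa, 0.0063 for Vegfd, 0.11 for Flt1, 0.065 for Flt4 and 0.20 for Prox1. Relative to the endothelial markers without Cldn5, Prox1 was 0.0025 and Flt1 -0.090 (exact permutation p = 0.0571), and relative to mural cell markers Flt1 was -0.12 (exact permutation p = 0.486). Another marker list moves the difference of every gene by the same amount. Turns of sign between lists are therefore not separate results of single genes. The causes of the other moves were not tested. Leaving out each mouse in turn, 378 of 408 values kept direction and side of the threshold (counts within 1.5 times), though their sizes moved. The number of genes higher ranged from 1 (when WT 2, AKO 3 or AKO 11 was left out) to 3, and of genes lower from 0 (without AKO mouse 3) to 2 (without WT mouse 4). Log2 changes ranged from -0.30 to 0.10 for Vegfa, 0.053 to 0.36 for Angpt1, -0.31 to -0.052 for Flt1, -0.036 to 0.35 for Vegfc, -0.13 to 0.20 for Angpt2, -0.18 to 0.26 for Kdr, -0.69 to 0.070 for Ccl21a and -0.60 to 0.015 for Thbs1. The ratio differences ranged from -0.58 to -0.067 for Angpt2 over Angpt1, -0.78 to -0.12 for Vegfd over Vegfc and -0.56 to -0.21 for Vegfb over Vegfa. Relative to endothelial markers they ranged from -0.14 to 0.021 for Vegfa, -0.53 to -0.34 for Vegfb, -0.17 to 0.34 for Angpt2, -0.14 to -0.10 for Flt1, -0.25 to -0.091 for Flt4 and -0.19 to 0.15 for Prox1. The range of Prox1, a gene near the floor, mostly mirrors the endothelial markers. The smallest FDR of any of the 10 genes under any limma setting was 0.332. Depth is unknown, so low genes such as Prox1 have no stated precision, and 4 mice a group leave intervals as wide as that of Vegfa.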
